A study of Mus musculus with 18 samples.

Results

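Skeletal muscle myosin carries light chains on the neck of each heavy chain, and the thick filament is bound by myosin binding protein C. The genes described here are 7 of the 20922 in the table, taken by name: the regulatory light chains Mylpf and Myl2, the essential light chains Myl1 and Myl3, the light chain kinase Mylk2, and the binding proteins Mybpc1 and Mybpc2. All 7 were above the minimum mean level for testing, which 12262 genes met. The data are 18 RNA sequencing libraries of mouse tibialis anterior, which lies along the shin, collected 36 days after the femoral artery was ligated on 1 side. All animals carried floxed Bmal1 alleles (Bmal1fx/fx), crossed to an ACTA-rtTA-TRE-Cre transgene, in which doxycycline switches on Cre and so removes Bmal1 in skeletal muscle. Doxycycline was given by oral gavage, and surgery followed a week after the last dose. The libraries fall in 4 groups by label: WT intact (5 libraries), WT ligated (4), BKO intact (5) and BKO ligated (4), where BKO stands for the Bmal1 knockout. Intact limbs are those on the side without surgery, so no limb of an unoperated animal is in the set. The labels give Cre +/+ for controls and -/- for knockouts, the reverse of the group names. They also do not say separately that controls received doxycycline. Age, sex and the time of day of collection are not known here.

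The regulatory light chain stiffens the myosin neck, and its phosphorylation by the calmodulin-dependent kinase Mylk2 increases force at low calcium. The essential light chain supports the same neck closer to the motor. Mylpf and Myl1 are the fast fibre forms, whereas Myl2 and Myl3 are the forms of slow fibres and of the heart's ventricle. Myosin binding protein C holds thick filaments in register and tunes how readily heads leave the filament. Mybpc1 is the slow form, which fast fibres also make, and Mybpc2 is the fast form. The tibialis anterior of the mouse is a fast muscle.

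The fast and slow forms are close relatives, which matters for short reads, so the stretch around the longest exact match of each pair is shown. Each stretch is coding sequence from the GENCODE vM21 transcripts, 5′ to 3′, and capitals mark the bases that both forms share without a break.
Mylpf: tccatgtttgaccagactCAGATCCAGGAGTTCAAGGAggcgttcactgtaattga
Myl2: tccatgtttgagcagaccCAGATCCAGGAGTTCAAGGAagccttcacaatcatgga
Myl1: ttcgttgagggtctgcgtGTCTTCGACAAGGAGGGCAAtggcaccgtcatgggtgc
Myl3: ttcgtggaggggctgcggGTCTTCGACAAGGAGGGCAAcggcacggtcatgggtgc
Mybpc1: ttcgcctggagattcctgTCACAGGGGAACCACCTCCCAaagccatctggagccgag
Mybpc2: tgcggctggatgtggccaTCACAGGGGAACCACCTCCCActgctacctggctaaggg
The longest shared run was 20 bases for Mylpf and Myl2, 20 for Myl1 and Myl3, and 21 for the binding proteins. Over the aligned coding bases, identity was 70.3% of 498 for Mylpf and Myl2, 73.3% of 450 for Myl1 and Myl3, and 61.8% of 3300 for Mybpc1 and Mybpc2. No 50-base word was therefore shared within a pair. Against all other annotated transcripts, 32.1% of the 50-base words of Myl1 also occur in its pseudogene Mylf-ps, which is not analysed here, so the level of Myl1 is uncertain to the extent that its reads were split. For Mybpc1, Mybpc2 and Myl2 the shared words were 5.24%, 2.72% and 2.14%, all with a gene on the opposite strand. Mylpf, Myl3 and Mylk2 shared none.

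On mm10, Mylpf (ENSMUSG00000030672) spans chromosome 7, 127208890 to 127214298 on the plus strand, and Myl2 (ENSMUSG00000013936) spans chromosome 5, 122100951 to 122113472 on the plus strand. Myl1 (ENSMUSG00000061816) lies on the minus strand of chromosome 1, 66924295 to 66945404, and Myl3 (ENSMUSG00000059741) on the plus strand of chromosome 9, 110741861 to 110769798. Mylk2 (ENSMUSG00000027470) is at chromosome 2, 152911352 to 152923068, plus strand. Mybpc1 (ENSMUSG00000020061) is at chromosome 10, 88518279 to 88605152, and Mybpc2 (ENSMUSG00000038670) at chromosome 7, 44501699 to 44524656, both on the minus strand. Myl2 overlaps Ccdc63 and Myl3 overlaps Pth1r, each on the other strand. These neighbours were low, at 0 to 1.18 and 0.837 to 20.9 normalized counts over the libraries. Each gene's count sums its isoforms, so the long and short forms of Myl1 cannot be separated here.

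BMAL1 binds with CLOCK to the E-box CACGTG, and the groups differ in a Bmal1 label, so the promoters were searched for it. RefSeq (GRCm38.p6) promoters, 250 bases before to 50 after the start, matched Mylpf, Myl1, Myl3, Mybpc1, Mybpc2 and Myl2, which has 2 entries. Both Myl2 entries (chr5:122092474-122092773 and chr5:122092939-122093238) lie before the start of the GENCODE gene given above, so their motifs describe windows outside it. The 4 below belong to the genes with most reads that passed a test and are given 5′ to 3′ on the gene's strand. Capitals mark matches to the general E-box CANNTG, which contains CACGTG and which myogenic factors bind, and in Myl1 also the TATA box TATAAA, all read on both strands.
Mylpf, chr7:127211358-127211657, plus strand: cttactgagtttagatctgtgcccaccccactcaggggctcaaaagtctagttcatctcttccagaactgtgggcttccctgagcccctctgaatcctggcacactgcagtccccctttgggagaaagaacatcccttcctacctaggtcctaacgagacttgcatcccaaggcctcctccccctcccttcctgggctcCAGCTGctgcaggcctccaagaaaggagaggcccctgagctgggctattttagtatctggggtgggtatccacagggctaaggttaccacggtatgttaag
Myl1, chr1:66945007-66945306, minus strand: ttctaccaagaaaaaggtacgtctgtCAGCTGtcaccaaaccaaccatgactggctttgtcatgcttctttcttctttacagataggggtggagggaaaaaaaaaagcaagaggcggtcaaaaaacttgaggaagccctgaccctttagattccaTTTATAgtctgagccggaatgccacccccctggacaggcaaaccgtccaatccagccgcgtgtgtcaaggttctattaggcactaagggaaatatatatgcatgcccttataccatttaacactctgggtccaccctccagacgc
Mybpc1, chr10:88605103-88605402, minus strand: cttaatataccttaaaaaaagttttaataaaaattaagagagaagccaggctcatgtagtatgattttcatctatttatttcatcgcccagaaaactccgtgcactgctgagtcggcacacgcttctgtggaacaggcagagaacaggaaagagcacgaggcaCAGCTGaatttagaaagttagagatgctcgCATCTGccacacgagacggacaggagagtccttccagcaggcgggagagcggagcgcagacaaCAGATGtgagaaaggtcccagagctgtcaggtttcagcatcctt
Mybpc2, chr7:44524620-44524919, minus strand: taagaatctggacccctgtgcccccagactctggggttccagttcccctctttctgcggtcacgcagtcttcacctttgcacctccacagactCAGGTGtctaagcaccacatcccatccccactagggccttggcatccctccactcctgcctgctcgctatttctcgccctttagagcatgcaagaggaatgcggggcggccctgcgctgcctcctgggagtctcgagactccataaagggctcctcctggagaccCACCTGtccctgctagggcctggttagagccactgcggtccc
CACGTG was in none of the 7 entries, and in 7.15% of all 32851 promoters. CANNTG was in all 7, with 1 match in Mylpf, 1 in Myl1, 1 in Myl3, 3 in Mybpc1 and 2 in Mybpc2, and it was in 72.3% of all promoters. TATAAA was in Myl1 and in 1 Myl2 entry (13.6% of all promoters). Both matches were on the opposite strand, as TTTATA, at -95 in Myl1 and -216 in Myl2 relative to the start. AGGTCA, the core site of ROR and REV-ERB receptors, was in the same Myl2 entry alone (16.3%). The CArG box of SRF was found in Myl3 alone (1.63%) and the MEF2 site in none (3.19%). A match is a description of the letters in this window only.

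The libraries held 14.1 to 25.6 M reads (M for mega). Bmal1 itself (symbol Arntl) averaged 56.3 ± 11.8 normalized counts over the 5 WT intact libraries and 16.2 ± 2.72 over the 4 WT ligated libraries (SD). Its mean was 49.9 ± 7.0 over the 5 BKO intact libraries and 70.0 ± 8.35 over the 4 BKO ligated libraries. In intact limbs the BKO mean of Bmal1 was thus 0.886 times the WT mean, with overlapping values. In ligated limbs Bmal1 was higher in the libraries labelled BKO (log2 difference 2.05 ± 0.19, adjusted p = 1.67e-07, limma). Libraries labelled BKO did not separate below WT in Bmal1 in either limb. A gene-level count cannot show whether a floxed exon is missing. The knockout comparisons below are therefore between libraries labelled BKO and libraries labelled WT, and their direction rests on those labels. The mitochondrial ribosomal RNA mt-Rnr2 took 31.9% to 36.1% of reads in intact and 38.1% to 55.5% in ligated libraries, highest in BKO ligated 5 and 4. The fast heavy chain Myh4 was at 105553 normalized counts per kb of transcript in WT intact libraries and the slow heavy chain Myh7 at 21.6, the pattern of a fast muscle. In whole muscle, fewer fibres of a type and less RNA per fibre cannot be told apart.

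The genes that changed with ligation or the BKO label did so in different directions. Mylpf rose with ligation and was higher in the libraries labelled BKO, whereas Myl1, its partner on the same heavy chain, fell with ligation. Mylk2 lay below its WT intact values in all 3 other groups, and Mybpc1 was lower in the libraries labelled BKO, most of all after ligation. A call below means an adjusted p under 0.05 (Benjamini-Hochberg, over all 12262 genes) in limma, and log2 fold changes are of the normalized count plus 1, with their standard error. In WT, 4 of the 7 passed for ligation, 1 higher and 3 lower, where 39.8% of all tested genes passed (18.7% higher, 21.1% lower). In BKO, 5 of 7 passed for ligation, 2 higher and 3 lower, against 47.2% of all genes (22.1% higher, 25.1% lower). The BKO label gave 3 of 7 in intact limbs, 1 higher and 2 lower, against 18.3% (8.56% higher, 9.75% lower). In ligated limbs it gave 2 of 7, 1 higher and 1 lower, against 8.84% (4.16% higher, 4.68% lower). For the interaction, which subtracts the effect of ligation in WT from that in BKO, 2 of 7 passed, 1 higher and 1 lower, against 6.01% (3.04% higher, 2.97% lower). Scaled by total reads outside mitochondrial genes, 79.5% of the passing genes were higher for ligation in WT, against 47.0% as deposited, and 60.1% against 46.9% in BKO. For the label those shares were 62.1% against 46.8% in intact and 27.1% against 47.1% in ligated limbs, and for the interaction 17.96% against 50.6%. The 16 calls of the 7 genes kept their direction on that scaling, but 4 values for ligation in WT moved by over 1.5 times: Mylpf to 0.57, Myl1 to -0.21, Mylk2 to -0.51 and Mybpc2 to -0.28. The members' median log2 change was -0.49 for ligation in WT, -0.22 for ligation in BKO, -0.17 for the BKO label in intact limbs and 0.30 in ligated limbs. The same medians over all tested genes were -0.0025, -0.0036, 0.00020 and -0.021. The ligation comparisons share their groups with the knockout comparisons, so the 5 sets of values are not independent.

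**Figure D1:**
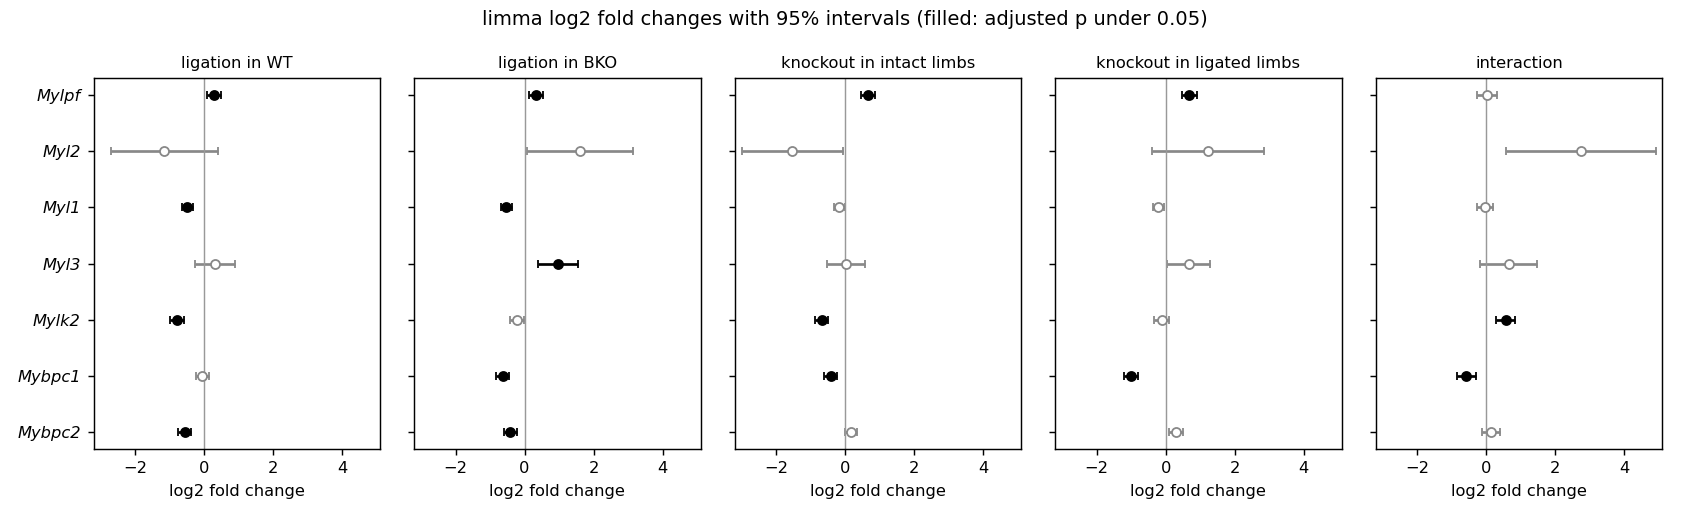
Log2 fold change of each of the 7 genes (limma) in the 5 comparisons, with 95% confidence intervals; filled points passed at an adjusted p under 0.05. Mylpf lies above 0 in the 4 comparisons between 2 groups, and Mybpc1 reaches -1.002 for the BKO label in ligated limbs.

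Mylpf, the fast regulatory light chain, had a higher mean in both BKO groups than in either WT group. Normalized counts in WT intact libraries 2 to 6 were 33367, 40469, 36160.5, 38214 and 33424, and in WT ligated libraries 2, 4, 5 and 6 they were 46368, 37725, 50816 and 43916. In BKO intact libraries 1 to 5 they were 64466, 56261, 66702, 51536 and 48944, and in BKO ligated libraries 2, 4, 5 and 6 they were 71273, 70189, 71441 and 73264. Every BKO intact library lay above every WT intact library, and the BKO ligated values lay above all others and close together (coefficient of variation 1.78%, against 8.48% to 13.5% in the other groups). WT ligated library 4 lay within the WT intact range, so those groups overlapped. WT ligated library 5 lay within the BKO intact range, so the WT ligated and BKO intact groups overlapped too. Group means were 36327 ± 3079.5 (SD, n = 5), 44706 ± 5461 (SD, n = 4), 57582 ± 7802 (SD, n = 5) and 71542 ± 1275 (SD, n = 4). The difference by label was 1.58-fold in intact limbs (log2 0.66 ± 0.09, adjusted p = 4.04e-05, limma) and 1.61-fold in ligated limbs (0.69 ± 0.11, adjusted p = 0.00015, limma). With ligation Mylpf rose 1.25-fold in BKO (0.32 ± 0.10, adjusted p = 0.0113, limma) and 1.23-fold in WT (0.30 ± 0.10, adjusted p = 0.023, limma). The WT call was lost without WT intact 2 or 6 or WT ligated 2 or 5, with adjusted p of 0.0559, 0.0552, 0.0611 and 0.0931, and with no filter on low genes (0.0663). The ligation effects differed between genotype labels by 0.03, with a 95% interval of -0.27 to 0.32.

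Myl2, the slow and cardiac regulatory light chain, was near the floor of the data in this muscle and did not pass in any comparison. In WT intact libraries it was at 42.6, 66.3, 7.88, 24.1 and 25.1 normalized counts, and in WT ligated libraries at 24.3, 4.07, 7.84 and 21.4. The BKO intact libraries held 1.78, 34.8, 5.91, 34.3 and 2.54, and the BKO ligated libraries 24.0, 34.4, 13.3 and 58.5. The values spread more within each group (coefficient of variation 59.5% to 108%) than between group means, which were 33.2, 14.4, 15.9 and 32.5, and all groups overlapped. These rest on 68 to 147 reads per group, and the fitted differences, from -1.53 to 2.75, had standard errors of 0.70 to 1.05. The value for ligation in BKO, 1.60 ± 0.74 (adjusted p = 0.0823, limma), passed without BKO intact 2 (adjusted p = 0.0261) or BKO intact 4 (0.0266). Its adjusted p reached 0.213 without another library (limma), and 0.423 over the other settings (limma, edgeR or DESeq2). The interaction was 2.75, with a 95% interval of 0.56 to 4.93 and an adjusted p of 0.123 (limma). The highest and lowest WT intact libraries for Myl2, 3 and 4, were also the highest and lowest for Myh7, at 319 and 8.87 normalized counts, and BKO ligated 6 was highest of its group for both (Myh7 at 430.1). In the other groups the highest library differed between these genes: BKO intact 2 for Myl2 and 4 for Myh7, and WT ligated 2 for Myl2 and 6 for Myh7.

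Myl1, the fast essential light chain, fell with ligation under both genotype labels. WT intact libraries were at 57472, 59337, 59233, 58428 and 55268 normalized counts, and WT ligated libraries at 42590.3, 36291, 43983 and 43087. BKO intact libraries were at 55925, 52937, 55611, 48311 and 45892, and BKO ligated libraries at 36022, 35645, 33614 and 38182. Every ligated library lay below every intact library, whichever the label. Ligation lowered Myl1 1.40-fold in WT (-0.49 ± 0.08, adjusted p = 4.68e-05, limma) and 1.44-fold in BKO (-0.53 ± 0.08, adjusted p = 1.56e-05, limma). The difference between these effects was -0.04, with a 95% interval of -0.27 to 0.19. Scaled by total reads outside mitochondrial genes, the falls were -0.21 in WT and -0.40 in BKO, and their difference was -0.19 (adjusted p = 0.284, limma). By label, Myl1 was at -0.17 ± 0.07 in intact limbs (adjusted p = 0.125, limma) and -0.21 ± 0.08 in ligated limbs (adjusted p = 0.129, limma), and the ranges overlapped in both. In ligated limbs the label difference passed on another scaling, by total reads outside mitochondrial genes (adjusted p = 0.0276), with DESeq2 (0.0421) and without WT ligated 4 (0.0399). Adjusted p rose to 0.278 without another library (limma), and to 0.476 over the other settings (limma, edgeR or DESeq2).

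Myl3, the slow and cardiac essential light chain, was low, and rose with ligation in the libraries labelled BKO. Its normalized counts were 197, 129, 159, 184 and 161 in WT intact and 212, 123, 238 and 284 in WT ligated libraries. They were 129.8, 181, 115, 267 and 176 in BKO intact and 318, 166, 486 and 448 in BKO ligated libraries. BKO ligated libraries 2, 5 and 6 lay above all others, and library 4 lay within the BKO intact range. The rise was 1.96-fold in BKO (0.97 ± 0.28, adjusted p = 0.00778, limma), and the value in WT was 0.32 ± 0.28 (adjusted p = 0.394, limma). The difference between these effects did not pass (0.65 ± 0.40, adjusted p = 0.357, limma). With replicate numbers as a block, the rise in BKO was 0.53 and did not pass (adjusted p = 0.221, limma). That block takes the value only from the 3 pairs of BKO libraries with equal numbers, 2, 4 and 5, so it rests on fewer libraries. By label, Myl3 was at 0.02 ± 0.27 in intact limbs and 0.67 ± 0.30 in ligated limbs (adjusted p = 0.178, limma), which was 1.00 without BKO ligated 4 (adjusted p = 0.0246). Leaving out other single libraries, the ligated value went down to 0.43 and its adjusted p up to 0.428 (limma).

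Mylk2, the skeletal muscle light chain kinase that phosphorylates Mylpf, was highest in the intact limbs labelled WT. Normalized counts there were 6744, 7579, 6157, 6661 and 6138. WT ligated libraries had 4074, 3472, 4341 and 3580.4, BKO intact libraries 4029, 4736, 4669.7, 3565 and 3838, and BKO ligated libraries 3589.9, 3847, 3153 and 3657. No library of the other 3 groups reached the lowest WT intact value, and those 3 groups overlapped each other. Ligation lowered Mylk2 1.72-fold in WT (-0.79 ± 0.09, adjusted p = 1.51e-06, limma). In BKO it was at -0.22 ± 0.09 (adjusted p = 0.0592, limma), which passed without BKO intact 4 (0.0227), BKO intact 5 (0.0467) or BKO ligated 4 (0.0481). Without other single libraries adjusted p was up to 0.194 (limma), and over the other settings up to 0.381 (limma, edgeR or DESeq2). By label, Mylk2 was 1.60-fold lower in intact limbs (-0.68 ± 0.09, adjusted p = 1.44e-05, limma) and was at -0.12 ± 0.10 in ligated limbs (adjusted p = 0.536, limma). The effect of ligation differed between labels by 0.56 ± 0.13 (adjusted p = 0.0168, limma), with a 95% interval of 0.29 to 0.84.

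Mybpc1, slow-type myosin binding protein C, was lower in the libraries labelled BKO and lowest in their ligated limbs. WT intact libraries held 14648, 15069, 15067, 15901 and 15618 normalized counts, and WT ligated libraries 14421, 13977, 15369 and 15100.0. BKO intact libraries held 9871, 11402, 12211, 13852 and 10127, and BKO ligated libraries 6536, 6637, 8358 and 8027. The WT groups overlapped, every BKO intact value was below the WT values, and every BKO ligated value was below the BKO intact values. Group means were 15260.5 ± 497 (SD, n = 5), 14717 ± 634 (SD, n = 4), 11493 ± 1627 (SD, n = 5) and 7389.6 ± 938 (SD, n = 4). The difference by label was 1.34-fold lower in intact limbs (-0.42 ± 0.09, adjusted p = 0.0017, limma) and 2.002-fold lower in ligated limbs (-1.002 ± 0.10, adjusted p = 4.33e-07, limma). In the latter comparison Mybpc1 was number 47 of 12262 genes by p. Ligation lowered it 1.55-fold in BKO (-0.63 ± 0.09, adjusted p = 1.32e-05, limma), and in WT it was at -0.05 ± 0.09 (adjusted p = 0.681, limma). The difference between these effects passed (-0.58 ± 0.13, adjusted p = 0.0135, limma), but not with replicate numbers as a block (adjusted p = 0.052, limma). That block takes the difference only from libraries with equal numbers, 4 pairs in WT and 3 in BKO.

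Mybpc2, the fast form, fell with ligation under both labels. Its normalized counts were 36412, 38553, 34133, 39285 and 35243 in WT intact and 25192, 22813, 27371 and 24743 in WT ligated libraries. In BKO intact libraries they were 45936, 41822, 44259, 37237 and 36561, and in BKO ligated libraries 34007, 31176, 26030.0 and 32127. Ligated and intact libraries did not overlap under either label. The fall was 1.47-fold in WT (-0.55 ± 0.09, adjusted p = 4.93e-05, limma) and 1.34-fold in BKO (-0.42 ± 0.09, adjusted p = 0.000669, limma). By label, Mybpc2 was at 0.16 ± 0.08 in intact limbs (adjusted p = 0.207, limma) and 0.30 ± 0.09 in ligated limbs (adjusted p = 0.0529, limma). The ligated difference lay at the threshold: it passed with TMM scaling (0.0428), edgeR (0.0417), DESeq2 (0.0115), a stricter filter (0.0408), without BKO ligated 5 (0.0143), and without BKO ligated 4 and 5 (0.0243). Leaving out other single libraries gave adjusted p up to 0.142 (limma), and the other settings up to 0.135 (limma, edgeR or DESeq2). The intact difference passed on total reads outside mitochondrial genes (0.0458). Ligation effects differed by 0.14 ± 0.13 (adjusted p = 0.574, limma).

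Counting separation of values alone, the groups did not overlap for 3 of 7 genes for ligation in WT, 4 for ligation in BKO, 3 for the label in intact limbs and 2 in ligated limbs. Over all tested genes, 32.5%, 35.7%, 14.4% and 12.9% did not overlap in these comparisons.

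The balance between partners was followed within each library, as ratios of normalized counts per kb, which do not depend on how libraries were scaled. These ratios were chosen after the values were seen and have no test. Mylpf per Myl1, the fast regulatory over the fast essential light chain, was 0.609, 0.715, 0.640, 0.686 and 0.634 in WT intact libraries and 1.14, 1.09, 1.21 and 1.07 in WT ligated libraries. It was 1.21, 1.11, 1.26, 1.12 and 1.12 in BKO intact and 2.07, 2.06, 2.23 and 2.01 in BKO ligated libraries. Ligation and the BKO label each went with a higher ratio without overlap, and the WT ligated and BKO intact ranges overlapped. Mylpf per summed fast heavy chains Myh1, Myh2 and Myh4 averaged 0.377 ± 0.00729 (SD) over the WT intact and 0.711 ± 0.0762 over the WT ligated libraries. Over the BKO intact libraries it averaged 0.623 ± 0.0445, and over the BKO ligated libraries 0.943 ± 0.0810. It, too, was higher without overlap in each of the 4 comparisons. Myl1 per fast heavy chains ranged less, at 0.577 ± 0.0434 (SD, n = 5), 0.631 ± 0.0581 (SD, n = 4), 0.536 ± 0.0260 (SD, n = 5) and 0.451 ± 0.0511 (SD, n = 4), and separated only for the label in ligated limbs, where it was lower in BKO.

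Kinase per substrate, as Mylk2 per 1000 Mylpf, averaged 47.6 ± 3.23 (SD) over the WT intact and 22.5 ± 1.14 over the WT ligated libraries. Over the BKO intact libraries it averaged 18.9 ± 2.20, and over the BKO ligated libraries 12.9 ± 1.14. It was lower without overlap in all 4 comparisons, also where Mylk2 alone overlapped. Mybpc1 per Mybpc2 was 0.383 ± 0.0222 (SD, n = 5), 0.542 ± 0.0240 (SD, n = 4), 0.260 ± 0.0520 (SD, n = 5) and 0.225 ± 0.0522 (SD, n = 4) in the same order. This ratio was higher in ligated limbs without overlap in WT, the BKO groups overlapped, and BKO lay below WT in both limbs. For the slow forms, Myl3 per 1000 Myl1 averaged 2.46, 4.37, 2.95 and 8.50 and Myl2 per 1000 Mylpf 0.778, 0.274, 0.250 and 0.390, with overlap in all 4 comparisons.

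**Figure D2:**
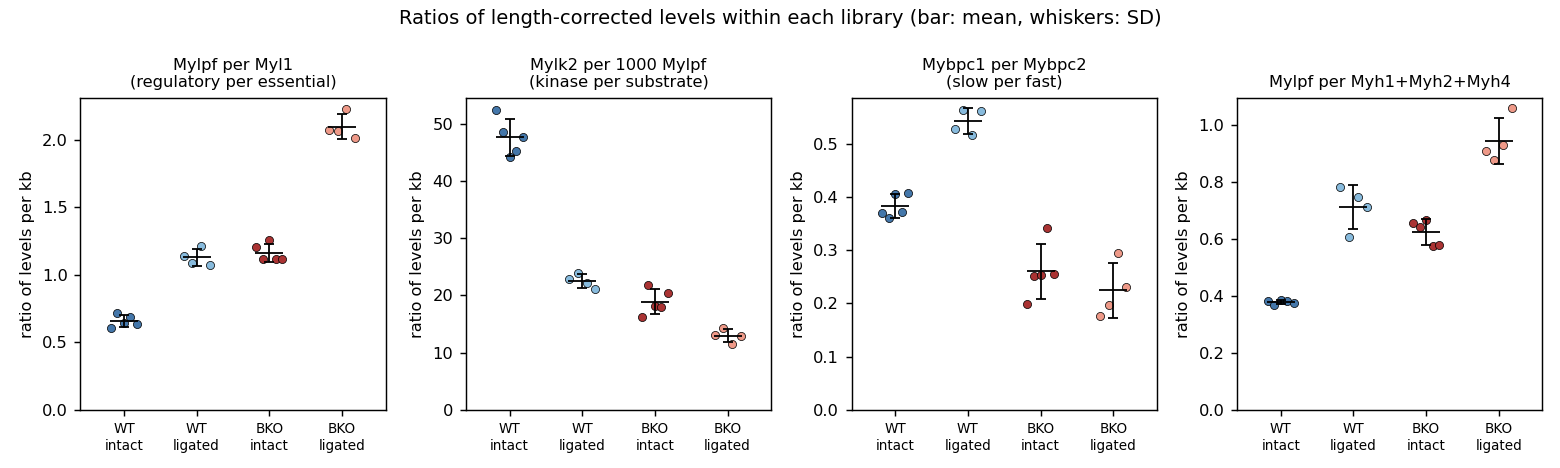
Ratios of normalized counts per kb within each library (points) by group, with the group mean. Mylpf per Myl1 averages 0.657 in WT intact and 2.09 in BKO ligated libraries, and Mylk2 per 1000 Mylpf falls from 47.6 to 12.9.

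Per kb of transcript, the order of levels changed at the top between groups. In WT intact libraries it ran Myl1 (72164 normalized counts per kb), Mylpf (47424), Mybpc2 (10170.4), Mybpc1 (3891), Mylk2 (2255), Myl3 (177) and Myl2 (37.3). In WT ligated libraries Mylpf (58364) was above Myl1 (51666) in each of the 4 libraries. Mylpf was also above Myl1 in every BKO library, at means of 75172 and 64427 in intact and 93397 and 44664 in ligated limbs. The ranges of Mylpf and Myl1 overlapped in WT ligated and in BKO intact limbs. The order of the other genes did not change in the group means, and the ranges of neighbours in it did not overlap in any group. Over all libraries Mylpf was number 19 and Myl1 number 23 of 12262 genes by level per kb, Mybpc2 number 52, Mybpc1 110, Mylk2 207, Myl3 1270 and Myl2 7161. Together the 7 genes took 1.37% to 1.90% of reads outside mitochondrial genes.

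Likeness to other genes was measured as the root mean square difference of centred log2 values over the 18 libraries, among 8248 genes with a mean of at least 50. Mylpf was nearest to Tln2 (0.112), a talin of muscle attachments, Thra (0.149), a thyroid hormone receptor, and Apobec2 (0.167). Myl1 was nearest to Park7 (0.0726), Adam9 (0.0737) and Nudt9 (0.0844). Mylk2 was nearest to Rhobtb2 (0.153), Rxra (0.160), a retinoid receptor, and Maf (0.166). Mybpc1 was nearest to Mpc1 (0.117), a subunit of the mitochondrial pyruvate carrier, Pgm2l1 (0.178) and Slc16a1 (0.184), a lactate transporter. Mybpc2 was nearest to the fast troponin Tnni2 (0.0951), Pdlim7 (0.104) and the thin filament cap Tmod4 (0.107). Myl2 was nearest to Myh7 (0.903), and Myl3 to Cul7 (0.390), distances much larger than for the abundant members. Among the 7 themselves, Myl1 was 0.218 from Mylk2 and 0.219 from Mybpc2, whereas Mylpf was 0.783 from Mybpc1. Libraries are shared by all these values, so they are a description.

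Other genes of the pathway were read from lists. Of all tested genes, 39.8% passed for ligation in WT and 47.2% in BKO. By label, 18.3% passed in intact and 8.84% in ligated limbs. A list count near these shares is no result about the list. Light chain, kinase and binding protein relatives were tested for 9 of 14. Of these 4 rose and none fell with ligation under either label. They were Myl4, the embryonic essential light chain (1.08 ± 0.42 in WT and 1.41 ± 0.42 in BKO), the non-muscle chains Myl6 (0.38 and 0.24) and Myl12b (0.55 and 0.45), and Mybph, myosin binding protein H. Mybph rose by 3.03 ± 0.23 in WT and 1.43 ± 0.23 in BKO, and these differed (-1.60 ± 0.33, adjusted p = 0.00807, limma). By label, 2 relatives rose and 1 fell in intact limbs, and 1 fell in ligated limbs. Those that rose were Myl12a (0.45 ± 0.14) and Mybph (2.17 ± 0.22, adjusted p = 5.77e-07, limma). Mybph thus differed by label before ligation is compared, with intact means of 39.5 normalized counts in WT and 171 in BKO. In ligated limbs its label difference was 0.56 ± 0.24 (adjusted p = 0.169, limma). The one that fell in both was Mylk4, a light chain kinase family member, with normalized counts of 8774 to 14609.9 in WT intact and 912 to 1294 in BKO intact libraries, a 10.2-fold lower level. In ligated limbs its ranges were 8865 to 11419 in WT and 788 to 1520.4 in BKO. With ligation Mylk4 was at -0.06 ± 0.16 in WT and 0.13 ± 0.16 in BKO, where Mylk2 was at -0.79 and -0.22.

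Of 7 genes of the light chain phosphatase and calmodulin, which activates Mylk2, 1 rose and 3 fell with ligation under each label. Among those that fell were Calm2 (-0.68 in WT, -0.40 in BKO) and Calm3 (-1.14 in WT, -0.998 in BKO). By label 1 rose and 2 fell in intact limbs, and 1 rose and 1 fell in ligated limbs. Calm2 was lower in both (-0.65 ± 0.09 and -0.36 ± 0.10) and the phosphatase targeting subunit Ppp1r12a higher in both (0.26 ± 0.09 and 0.53 ± 0.10). The targeting subunit Ppp1r12b went the other way in intact limbs (-0.18 ± 0.06, adjusted p = 0.0368, limma). In ligated limbs it was at -0.02 ± 0.07 (adjusted p = 0.884, limma). Ppp1r12b was the more abundant of these 2, at 636 against 63.9 normalized counts per kb in WT intact libraries.

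Among 11 fast fibre partners, 7 fell with ligation under each label, 0 rose in WT and 1 in BKO. Examples were the fast troponins Tnnc2 (-0.90 ± 0.07 in WT, -0.96 ± 0.07 in BKO) and Tnnt3 (-0.73 and -0.69) and the tropomyosin Tpm1 (-0.89 and -0.70). The list's median was -0.48 in both, near those of Myl1 and Mybpc2, while Mylpf went the other way. By label, 1 of 11 was higher and 2 lower in intact limbs, and 2 higher and 1 lower in ligated limbs. Tnnc2 was higher in both (0.40 ± 0.07 and 0.34 ± 0.08). Of 9 slow fibre partners, 1 rose and 2 fell with ligation under each label, and 1 rose by label in each limb. The calcium pump Atp2a2 rose with ligation (1.02 ± 0.15 and 1.58 ± 0.15). Those that fell with ligation were the calcium store protein Casq2 (-0.39 in WT, -0.35 in BKO) and the heavy chain Myh7b (-2.02 and -2.08). Myh7b was near the floor, with means of 13.3 normalized counts in WT intact and 4.21 in WT ligated libraries. Its means were 23.3 in BKO intact and 5.83 in BKO ligated libraries. Casq2 was higher by label (1.67 ± 0.12 and 1.72 ± 0.14).

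Of 7 thick filament and M-band scaffold genes, 3 rose and 3 fell with ligation in WT, and 4 rose and 3 fell in BKO. By label 2 fell in intact limbs and 1 rose in ligated limbs, which was the M-band protein Myom3 (1.60 ± 0.29). Of 7 genes of myosin folding and turnover, 6 fell with ligation in WT and 5 in BKO, and by label 3 rose in intact limbs and 2 in ligated limbs. The ubiquitin ligase Trim63, which marks myosin and its partners for breakdown, fell with ligation (-0.66 ± 0.12 and -0.40 ± 0.12) and was higher by label (0.91 ± 0.11 and 1.17 ± 0.13). Fbxo32, another ligase of wasting muscle, did the same (-1.56 and -1.37 with ligation, 0.49 and 0.68 by label). Of 6 developmental and regeneration markers, 3 rose with ligation in WT, and 4 rose and 1 fell in BKO. By label 1 rose and 1 fell in intact limbs, and 1 rose in ligated limbs. The neonatal heavy chain Myh8 rose by 2.495 ± 0.30 in WT and 2.44 ± 0.30 in BKO.

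Markers of other cells were counted for ligation in the same way, where 39.8% of all genes passed in WT and 47.2% in BKO. Adipocyte markers rose for 8 of 8 in WT and 7 of 8 in BKO, endothelial markers for 6 of 7 under each label, and fibroblast and matrix markers for 6 and 5 of 7. The summed adipocyte list ran from 2453 to 3167 normalized counts in WT intact, 7704 to 10657 in WT ligated, 2618 to 3146 in BKO intact and 4077 to 8051 in BKO ligated libraries. Summed fibroblast and matrix markers ran from 6380.4 to 8226, 17036 to 20459.9, 5799 to 7080.2 and 12407 to 19971 in that order, and endothelial markers from 2197 to 2732, 3528 to 4682, 2324 to 2955 and 3972 to 5249.7. Macrophage markers rose for 4 of 8 and fell for 1 in WT, and 1 fell in BKO, with sums of 398 to 589, 589 to 749.6, 288 to 497 and 333 to 545. Of 5 tested smooth muscle markers, 1 fell under each label, with sums of 1125 to 1571 over all libraries. No marker of these lists was at 0 in a whole group. Their part in the ligation results was not tested. By label in intact limbs, where 18.3% of all genes passed, 1 adipocyte, 1 fibroblast and 1 smooth muscle marker fell. No endothelial or macrophage marker passed there. In ligated limbs, where 8.84% of all genes passed by label, 2 adipocyte, 2 macrophage and 2 fibroblast markers fell. Cardiac markers were summed beside Myl2 and Myl3, whose source was not tested. For the 4 of 6 analysed, sums were 4.35 to 116 normalized counts over the libraries, with Ryr2 at 0 in BKO ligated libraries. The 1 tested, the heavy chain Myh6, fell with ligation (-4.12 ± 0.49 in WT, -4.92 ± 0.49 in BKO) and did not pass by label. Myh6 was low, with means of 22.8 normalized counts in WT intact and 0.218 in WT ligated libraries. Its means were 51.2 in BKO intact and 0.750 in BKO ligated libraries.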

How the data were processed

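Per the labels' protocols, libraries of 18 tibialis anterior muscles came from a stranded total RNA kit (TruSeq). The submitters' processing notes name the build mm10 and, in no stated order, RSEM 1.3.3, STAR 2.5.2, Trimmomatic 0.33 and DESeq2. The annotation and strand setting are not given in sources used here, and how reads split between overlapping genes is uncertain. The authors deposited normalized counts, a signal for each gene in each library that ignores gene length. Every value was a whole number of reads divided by 1 size factor per library (100% of values within a tolerance of 0.001), and the recovered reads gave the depth, 14.1 to 25.6 M per library.

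Genes with a mean of at least 10 (12262) were fitted in R 4.3.3 with limma 3.58.1, on the log2 of the normalized count plus 1, with 1 mean per group, eBayes with an intensity trend and Benjamini-Hochberg adjustment over all of them. The log2 scale with a pseudocount of 1 understates changes of low genes. Levels per kb divide by the length of the principal GENCODE vM21 transcript. Alternatives were other scalings, pseudocounts and filters, edgeR 4.0.16 and DESeq2 1.42.0 on recovered reads, a replicate block and leaving out libraries. The scripts were tested on simulated data.

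The 7 genes and the 13 lists were chosen with earlier results of these data known. All 7 are described, and from a list at most 4 genes with the smallest p in a comparison are named; 1 gene is not reported here. No label says that each library is a separate animal. The p-values hence cover only the spread between these samples, which may be technical. No source used here names molecular identifiers, so reads need not be independent molecules.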

Additional observations from a re-analysis of the deposited data

Results flagged for a closer look

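The effect of ligation on Mylk2 differed between the genotype labels by 0.56 on the log2 scale, tested as an interaction in limma, with a fall in WT (-0.79) and a value of -0.22 in BKO. For Mybpc1 the same difference was -0.58, with -0.05 in WT and -0.63 in BKO. The Mybpc1 difference did not pass with replicate numbers as a block (adjusted p = 0.052, limma), which rests only on libraries with equal numbers. No library stood apart from its group by Dixon's test in any of the 28 sets of 1 gene in 1 group.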

How the results depend on the processing

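All 16 calls of the 7 genes kept their direction and their side of the threshold under both other scalings. Scaling by total reads outside mitochondrial genes shifted the median of all genes by 0.27 (ligation in WT), 0.12 (ligation in BKO), 0.07 (label in intact limbs), -0.10 (label in ligated limbs) and -0.16 (interaction). On that scaling Mybpc1 for ligation in WT was 0.22 (adjusted p = 0.0578, limma), and the interactions of Mylpf and Mybpc2, which did not pass, were -0.12 and -0.017. The genes passing for the interaction were 737, against 1297 on that scaling, 1194 with DESeq2, 382 with the replicate block and 269 without BKO ligated 4 and 5, the libraries with most mt-Rnr2. Without those 2 libraries, 617 genes passed for the label in ligated limbs, against 1084, and the Myl1 interaction was 0.0098. edgeR on recovered reads called 4899, 5757, 2285, 1126 and 762 genes in the 5 comparisons. Of the 7 genes, 4 passed for the label in ligated limbs with DESeq2, and 1 for the interaction with the replicate block, where Mybpc1 was -0.66 (adjusted p = 0.052, limma). With that block the Myl3 change with ligation in BKO was 0.53 (adjusted p = 0.221, limma). For ligation and the interaction, the block takes its values only from libraries with equal numbers, 4 pairs in WT and 3 in BKO. No label says whether equal replicate numbers mark the same mouse. Deviations of libraries with equal numbers correlated at -0.064 to 0.121, and not every library was nearest to its own number. With 3 or 4 pairs for each 2 groups, these values cannot decide it. Leaving out 1 library at a time, in the order of comparisons above, the members passing were 3 to 4, 5 to 7, 3 to 3, 2 to 3 and 2 to 2, and the genes passing 4286 to 4696, 5018 to 5747, 1779 to 2162, 734 to 1257 and 402 to 1015. The lowest interaction counts came without WT ligated 2 (402) and WT ligated 5 (461). The Myl3 label difference in intact limbs, which did not pass, ran from -0.15 to 0.15 and the Mylpf interaction from -0.0505 to 0.0927. The Myl2 rise with ligation in BKO passed without BKO intact 2 or 4 (0.0261 and 0.0266), and its adjusted p reached 0.213 without another library (limma). Myl2 had no value under the filter at a mean of 50. The cause of these changes was not tested.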
